A study of Mus musculus with 38 samples.

Results

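60577 is a mouse cell line of high-grade serous ovarian cancer (HGSOC) that grows in the omentum after injection into the peritoneal cavity. The 60577 tumors of mice treated with carboplatin and paclitaxel were compared between 2 times, 21 days (TP3) and 7 days (TP2) after the last dose. The members, taken by their labels, are the 4 TP3 and the 4 TP2 treated 60577 tumors among the 38 libraries of the series. All 8 mice were female FVB mice without a named genetic change, were 8 to 9 weeks old at cell injection, and received 3 weekly intraperitoneal doses of 20 mg/kg carboplatin with 10 mg/kg paclitaxel. TP2 tumors were taken 42 days and TP3 tumors 56 days after cell injection. Time after the last dose and age of the tumor therefore moved together and cannot be told apart. There were no untreated tumors at TP3, so the 3 vehicle-treated TP2 control tumors are given as the only background. RNA came from whole frozen tumors of a single injected line, with host fat, vessels, fibroblasts and immune cells included, so fewer cells of a type and less RNA per cell cannot be told apart in any result. The other model of the series, HGS2, is a mouse HGSOC line grown in C57BL/6 mice on the same doses and served for one test of whether a change differed between models.

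Carboplatin crosslinks DNA and paclitaxel stabilizes microtubules, so both act most on dividing cells. The omentum is a fold of visceral fat, made largely of adipocytes that take up fatty acids, build them anew from citrate and store them as triglyceride. Among the fat lie milky spots, small lymphoid clusters with B cells of the innate-like B-1 type and resident macrophages. HGSOC commonly spreads to this tissue and replaces it with malignant cells, fibroblasts and matrix.

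The 8 libraries held 19456375 to 29011193 expected counts on genes, so depth was similar between the times, but RNA composition was not. 7SL RNA, the RNA of the signal recognition particle, took 9.38%, 13.1%, 19.4% and 26.5% of counts in TP2 tumors 1 to 4 and 2.69%, 1.93%, 5.89% and 2.49% in TP3 tumors 1 to 4. The times did not overlap in this share, and 1 of the 3 TP2 controls also had 14.1%. TP2 tumors 3 and 4 stood apart from the other 6 tumors, with 0.399% and 0.360% of counts on mitochondrially encoded genes (1.07% to 1.54% in the others) and 0.879% and 1.08% on ribosomal protein genes (1.68% to 2.79%). Over all genes tested, the TP3 tumors correlated with each other at 0.979 to 0.986, with TP2 tumor 1 at 0.973 to 0.978, with TP2 tumor 2 at 0.940 to 0.950 and with TP2 tumors 3 and 4 at 0.899 to 0.926 (Pearson's r across genes on log2 CPM, a description). For this reason results are also given without TP2 tumors 3 and 4, a choice made after seeing the data. The part of RNA composition in the results was not tested. As a check of the label, the summed level of the 15 epithelial tumor cell markers tested was 402.1 to 704.3 CPM (counts scaled by library size) at TP2 and 286.3 to 419.1 CPM at TP3, against 2143 to 3248 CPM in TP2 controls and 4588 and 4970 CPM, without TMM scaling, in the cultured line.

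**Figure D1:**
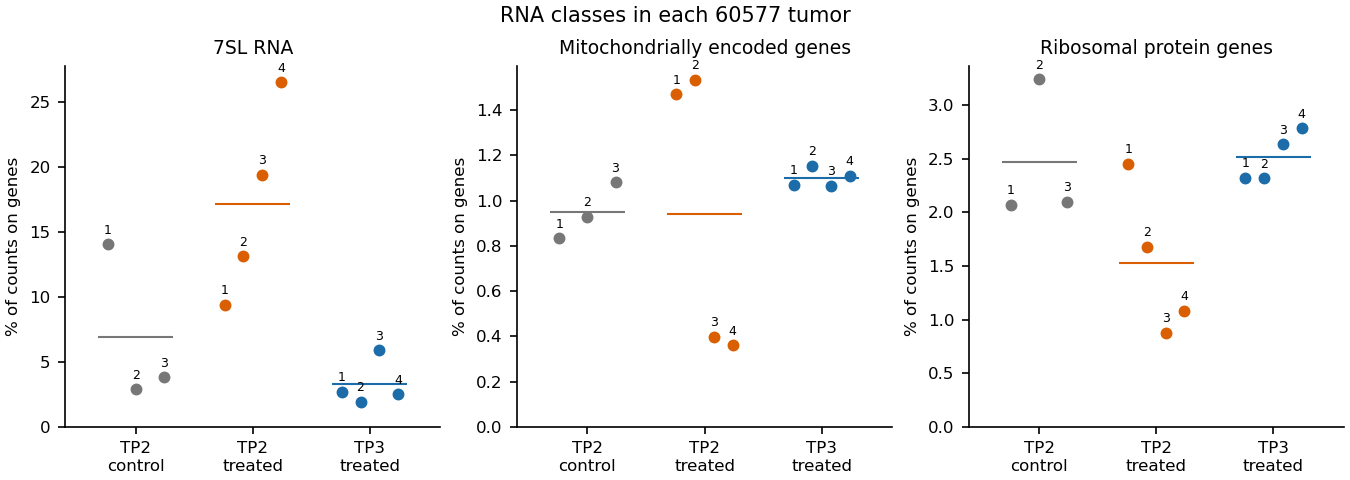
Share of counts on genes (%, linear axis) taken by 7SL RNA, mitochondrially encoded genes and ribosomal protein genes in each 60577 tumor. Points are tumors with their replicate number and lines are group means (3 TP2 control, 4 TP2 treated, 4 TP3 treated). All TP3 tumors lie below all TP2 treated tumors for 7SL RNA, and TP2 treated tumors 3 and 4 lie lowest for the other classes.

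Of 16241 genes tested, 1278 (7.87%) differed between TP3 and TP2 treated tumors, with an adjusted p below 0.05 (edgeR quasi-likelihood test, Benjamini-Hochberg) and an absolute log2 fold change above 1. Of these, 563 (3.47% of genes tested) rose and 715 (4.40%) fell, with a median log2 fold change over all genes of -0.01. The shares 3.47% and 4.40% are the background for each count of called list members below. Over all 16241 genes the times did not overlap for 15.3% with higher and 13.7% with lower TP3 values, the background for each count without overlap below. The 4 TP3 tumors lay outside the range of the 4 TP2 tumors for 517 of the genes that rose and 522 of those that fell. TP2 tumor 1 was the TP2 tumor nearest to TP3 for most of them, being the highest TP2 tumor for 496 of the 563 and the lowest for 570 of the 715. Without TP2 tumors 3 and 4, 214 genes (1.32%) passed, 49 higher (0.302%) and 165 lower (1.02%), and 47 and 128 of these were among those called with all tumors. All 563 genes that rose and 714 of the 715 that fell kept their sign, and 368 and 303 kept a log2 fold change beyond 1. Leaving out TP2 tumor 3 alone left 732 genes and TP2 tumor 4 alone 839, whereas leaving out TP2 tumor 1 gave 2127. With each of the 8 tumors left out in turn, 260 of the 563 and 332 of the 715 were called every time. With the 7SL share as a covariate, which moves with time, 15 genes (0.0924%) passed, 14 higher (0.0862%) and 1 lower (0.00616%). Throughout, values per tumor are CPM after TMM scaling, and a fold change is the log2 difference of TP3 minus TP2 ± its standard error with the edgeR adjusted p over all genes. A second fold change and adjusted p after a semicolon are those without TP2 tumors 3 and 4, where the median over all genes was again -0.01, and a range of log2 fold changes beside a lost call is that over the 8 fits with 1 tumor left out.

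Genes of fatty acid synthesis had the smallest p among those that rose. They build palmitate from citrate and acetate, then lengthen, desaturate and esterify it. Of 20 genes on the list of fatty acid and triglyceride synthesis, 13 rose and none fell, and 15 did not overlap between times (15.3% of all genes). The list had a median log2 fold change of 1.75 (1.34 without TP2 tumors 3 and 4, where 8 still passed).

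Fasn, the fatty acid synthase, measured 1024, 343, 340.5 and 442 CPM in TP2 tumors 1 to 4 and 3656, 3061, 2103 and 3408 CPM in TP3 tumors 1 to 4. Every TP3 tumor lay above every TP2 tumor, and TP2 tumor 1 was the highest of its group. This was a log2 fold change of 2.51 ± 0.32 (edgeR adjusted p = 0.00107), and 2.15 (adjusted p = 0.0178) without TP2 tumors 3 and 4. The TP2 controls had 450, 408 and 471 CPM, close to TP2 tumors 2 to 4. Acaca, the acetyl-CoA carboxylase that makes malonyl-CoA for Fasn, measured 252, 105, 144 and 129.9 CPM in TP2 tumors 1 to 4 and 656, 590, 441 and 583 CPM in TP3 tumors 1 to 4. It did not overlap between times and rose by 1.85 ± 0.22 (edgeR adjusted p = 0.00107; 1.66 without TP2 tumors 3 and 4, adjusted p = 0.0172). Acss2, which turns acetate into acetyl-CoA, measured 15.9, 7.66, 10.03 and 10.3 CPM in TP2 tumors 1 to 4 and 48.5, 42.9, 29.8 and 52.7 CPM in TP3 tumors 1 to 4. It rose by 1.99 ± 0.23 (edgeR adjusted p = 0.00107; 1.87 without TP2 tumors 3 and 4, adjusted p = 0.0154) and was lower still in the controls, at 3.29, 4.43 and 5.28 CPM.

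Scd1, the stearoyl-CoA desaturase, measured 1741, 244, 175 and 291 CPM in TP2 tumors 1 to 4 and 7476, 8290, 4084 and 8138 CPM in TP3 tumors 1 to 4. It spread widely at TP2, where tumor 1 held several times the level of the others, and at TP3 tumor 3 was lowest. The fold change was 3.51 ± 0.66 (edgeR adjusted p = 0.00329; 2.81 without TP2 tumors 3 and 4, adjusted p = 0.0457). The controls held 93.8, 130.1 and 84.7 CPM. Smaller but tight rises were found for the elongase Elovl6 (1.80 ± 0.24), malic enzyme Me1, a source of NADPH (1.80 ± 0.25), the mitochondrial citrate carrier Slc25a1 (1.62 ± 0.21), transketolase Tkt of the pentose phosphate pathway (1.65 ± 0.22), pantothenate kinase Pank3, which starts coenzyme A synthesis (1.54 ± 0.21), and the acyltransferase Agpat2 (1.69 ± 0.24), with edgeR adjusted p from 0.00107 to 0.00129. All of them also passed without TP2 tumors 3 and 4, with log2 fold changes from 1.18 (Pank3) to 1.48 (Elovl6).

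The triglyceride-forming acyltransferase Dgat2 measured 102, 19.98, 20.5 and 23.9 CPM in TP2 tumors 1 to 4 and 361, 458, 255 and 294 CPM in TP3 tumors 1 to 4, a rise of 3.03 ± 0.68 (edgeR adjusted p = 0.00609) that no longer passed without TP2 tumors 3 and 4 (2.47, adjusted p = 0.105). Not every gene of the route passed. Gpam, the mitochondrial acyltransferase that starts glycerolipid synthesis, overlapped between times and differed by 0.08 ± 0.15 (edgeR adjusted p = 0.693; -0.03, adjusted p = 0.953). Srebf1, which encodes the sterol-regulated activator SREBP1 of lipogenic genes, measured 119.8, 98.2, 107 and 103 CPM in TP2 tumors 1 to 4 and 184, 199, 147 and 156 CPM in TP3 tumors 1 to 4. Its groups did not overlap, yet the difference of 0.68 ± 0.12 (edgeR adjusted p = 0.003; 0.64, adjusted p = 0.0426) was below the fold limit. Gpam and Srebf1 were chosen after their values were seen.

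Sterol synthesis gave fewer calls. Of 20 cholesterol synthesis genes, 4 rose and none fell, with a median of 0.56 (0.33 without TP2 tumors 3 and 4, where 1 passed). Insig1, which holds the SREBP activator in the endoplasmic reticulum, rose by 1.65 ± 0.24 (edgeR adjusted p = 0.00135; 1.36 without TP2 tumors 3 and 4, adjusted p = 0.025). Breakdown genes were mixed. Of 20 genes of lipolysis and fatty acid oxidation, 6 rose, 1 fell and the median was 0.78 (0.48 without TP2 tumors 3 and 4, where 1 rose). Pnpla2, the lipase that starts triglyceride breakdown in fat cells, measured 143, 52.1, 32.4 and 50.2 CPM in TP2 tumors 1 to 4 and 351, 382, 283 and 305 CPM in TP3 tumors 1 to 4 and rose by 2.25 ± 0.40 (edgeR adjusted p = 0.00253; 1.75 without TP2 tumors 3 and 4, adjusted p = 0.0413). The member that fell was Cpt1b, the muscle form of the carnitine transferase that carries fatty acids into mitochondria (-1.60 ± 0.34, edgeR adjusted p = 0.00488; -0.79, adjusted p = 0.103, without TP2 tumors 3 and 4). Each call named among these lipid genes held whichever 1 of the 8 tumors was left out.

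**Figure D2:**
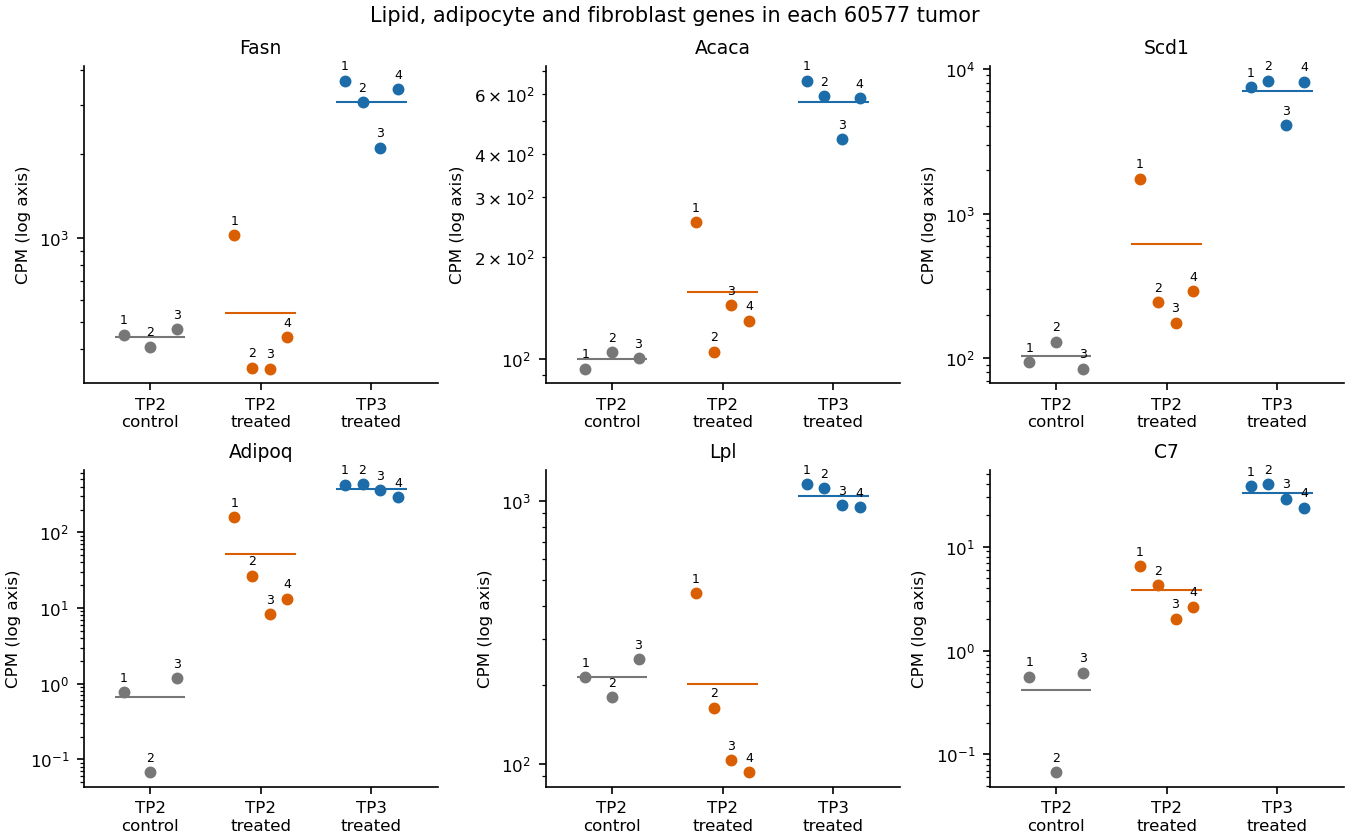
CPM (log axis) of Fasn, Acaca, Scd1, Adipoq, Lpl and C7 in each 60577 tumor. Points are tumors with their replicate number and lines are group means (3 TP2 control, 4 TP2 treated, 4 TP3 treated). For each of the 6 genes all TP3 tumors lie above all TP2 treated tumors, of which tumor 1 is highest.

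The Fasn promoter is shown because of its inverted CCAAT box, known to be bound by the factor NF-Y beside SREBP1. Fasn spans chr11:120805846-120824547 in GRCm38 (GENCODE M21). The stretch printed runs from 250 bases before to 50 bases after the transcription start (RefSeq, GRCm38.p6, chr11:120824498-120824797, minus strand), with CCAAT or its reverse complement in capitals. A pair of the matches overlaps.
Fasn: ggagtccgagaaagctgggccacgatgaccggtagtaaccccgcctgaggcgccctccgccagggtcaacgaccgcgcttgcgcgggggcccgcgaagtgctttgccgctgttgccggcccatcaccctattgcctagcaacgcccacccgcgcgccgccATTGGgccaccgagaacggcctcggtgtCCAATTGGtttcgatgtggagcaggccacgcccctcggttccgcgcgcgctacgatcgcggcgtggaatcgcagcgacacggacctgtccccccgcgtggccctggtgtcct
Promoter sequences were found for 16 of the 20 fatty acid and triglyceride genes. CCAAT on either strand lay in 8 of these 16, in 12 of 13 cholesterol synthesis promoters (92.3%) and in 37.9% of all 27025 promoters. These are matches of letters, given as a description without a test.

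Adipocyte genes were higher at TP3 as a group, but with a wide spread at TP2. Of 25 adipocyte identity genes tested, 17 rose and none fell, 24 did not overlap between times (15.3% of all genes), and the median was 2.54. Without TP2 tumors 3 and 4 the median was 1.90 and 1 gene, Lpl, still passed. The summed level of the list was 3600, 792, 642.8 and 688 CPM in TP2 tumors 1 to 4, 6567 to 8778 CPM in TP3 tumors and 277.1 to 352 CPM in TP2 controls. TP2 tumor 1 held several times the level of the other TP2 tumors. Both lists are expressed by adipocytes. The cultured 60577 line, without TMM scaling, also held 493.7 and 556 CPM of the adipocyte list. For the list of fatty acid and triglyceride synthesis it held 4286 and 3478 CPM. The parts of adipocyte and tumor cell content in the rise of the synthesis genes were not tested.

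Lpl, the lipase on vessel walls that frees fatty acids for uptake, measured 446, 164, 104 and 92.96 CPM in TP2 tumors 1 to 4 and 1158, 1122, 965 and 949.8 CPM in TP3 tumors 1 to 4. It rose by 2.38 ± 0.39 (edgeR adjusted p = 0.00198; 1.77 without TP2 tumors 3 and 4, adjusted p = 0.0178), and the controls had 214, 179 and 251 CPM, all above TP2 tumors 2 to 4 and below TP2 tumor 1. Adipoq, the adipocyte hormone adiponectin, measured 159, 26.8, 8.21 and 13.2 CPM in TP2 tumors 1 to 4 and 424, 430.1, 362 and 290 CPM in TP3 tumors 1 to 4. The times did not overlap, but TP2 tumor 1 was far above the other TP2 tumors, and the rise of 2.86 ± 1.07 only just passed (edgeR adjusted p = 0.0491; 2.01 without TP2 tumors 3 and 4, adjusted p = 0.336). The controls were near 0, at 0.769, 0.0672 and 1.18 CPM. Lep, the hormone leptin, measured 26.7, 4.66, 5.61 and 4.30 CPM in TP2 tumors 1 to 4 and 112, 163, 87.1 and 62.9 CPM in TP3 tumors 1 to 4. It rose by 3.36 ± 0.97 (edgeR adjusted p = 0.0182), which became 2.75 (adjusted p = 0.202) without TP2 tumors 3 and 4.

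Pparg, the nuclear receptor that directs adipocyte differentiation, measured 20.2, 7.32, 10.6 and 8.10 CPM in TP2 tumors 1 to 4 and 46.1, 49.1, 39.6 and 34.5 CPM in TP3 tumors 1 to 4 and rose by 1.87 ± 0.34 (edgeR adjusted p = 0.00305; 1.61 without TP2 tumors 3 and 4, adjusted p = 0.0567). Plin1, which coats the lipid droplet, rose by 2.54 ± 0.92 (edgeR adjusted p = 0.0436; 1.97 without TP2 tumors 3 and 4, adjusted p = 0.337), with 209.8 CPM in TP2 tumor 1, 40.9 to 47.5 CPM in the other TP2 tumors and 402.3 to 585.7 CPM at TP3. Cd36, a fatty acid transporter of adipocytes, endothelium and macrophages, measured 204, 45.6, 18.6 and 19.9 CPM in TP2 tumors 1 to 4 and 482, 548, 401 and 396 CPM in TP3 tumors 1 to 4 and rose by 2.67 ± 0.60 (edgeR adjusted p = 0.00617; 1.86 without TP2 tumors 3 and 4, adjusted p = 0.0471). With 1 of the 8 tumors left out at a time, the calls of Lpl, Pparg and Cd36 held, that of Lep was lost without TP2 tumor 3 or 4 (3.07 to 4.49, adjusted p up to 0.0586), and those of Adipoq (2.50 to 4.57, adjusted p up to 0.124) and Plin1 (2.31 to 3.54, adjusted p up to 0.119) were lost in 7 of 8 cases, all but the one without TP2 tumor 1.

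The Lep promoter is shown for its C/EBP site, known from studies of leptin transcription in fat cells (RefSeq, GRCm38.p6, chr6:29059971-29060270, plus strand, with TTGCNNAA in capitals). Lep spans chr6:29060220-29073877 in GRCm38.
Lep: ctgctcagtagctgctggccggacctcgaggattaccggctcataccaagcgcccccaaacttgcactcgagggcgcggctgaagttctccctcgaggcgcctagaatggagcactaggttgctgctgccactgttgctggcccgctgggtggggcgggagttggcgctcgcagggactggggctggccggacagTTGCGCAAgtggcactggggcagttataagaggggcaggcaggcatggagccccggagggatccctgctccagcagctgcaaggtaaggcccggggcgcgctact
TTGCNNAA on either strand lay in 3 of 17 adipocyte promoters (17.6%) and in 10.8% of all promoters.

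Fibroblast genes of adipose tissue rose beside the adipocyte genes. Of 20 genes on the list of adipose and universal fibroblasts, 13 rose and none fell, with a median of 1.31 (0.90 without TP2 tumors 3 and 4, where 2 passed). C7, a complement component made by these fibroblasts, measured 6.53, 4.24, 2.03 and 2.64 CPM in TP2 tumors 1 to 4 and 38.4, 39.8, 28.9 and 23.8 CPM in TP3 tumors 1 to 4. All TP3 tumors lay above all TP2 tumors, and C7 rose by 3.07 ± 0.49 (edgeR adjusted p = 0.00188; 2.59 without TP2 tumors 3 and 4, adjusted p = 0.0325). Gsn, the actin-severing protein gelsolin, was the other member that passed both ways (1.92 ± 0.37, edgeR adjusted p = 0.00353; 1.39, adjusted p = 0.0426). Its values were 1134, 627, 262 and 431 CPM at TP2 and 2756, 2262, 2026 and 2227 CPM at TP3. Dpt, dermatopontin of the fibroblast matrix, measured 162, 58.3, 17.5 and 25.6 CPM in TP2 tumors 1 to 4 and 318, 323, 243 and 369 CPM in TP3 tumors 1 to 4 and rose by 2.25 ± 0.64 (edgeR adjusted p = 0.0174; 1.49 without TP2 tumors 3 and 4, adjusted p = 0.183). Pdgfra, a receptor borne by most fibroblasts, overlapped between times and differed by 0.43 ± 0.12 (adjusted p = 0.0164; 0.31, adjusted p = 0.209), and Pi16, a marker of progenitor-like fibroblasts, by 0.90 ± 0.48 (adjusted p = 0.147; 0.86, adjusted p = 0.426). The calls of C7 and Gsn held with any 1 tumor left out, and that of Dpt was lost without TP2 tumor 3 or 4 (1.93 to 3.24, adjusted p up to 0.055).

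Matrix genes split by kind. Among 26 glycoproteins and proteoglycans, 8 rose and 1 fell (median 0.70; 0.51 without TP2 tumors 3 and 4, where 0 rose and 1 fell). Among 22 fibrillar collagens and their crosslinking enzymes, none rose and 2 fell (median -0.05; -0.08, with none passing, without those tumors). The 2 were Col24a1, a minor fibrillar collagen (-1.68 ± 0.46, edgeR adjusted p = 0.0139; -0.78, adjusted p = 0.33), lost also without TP2 tumor 4 alone (-1.90 to -1.38, adjusted p up to 0.0537), and Bmp1, which trims procollagen ends (-1.06 ± 0.20, edgeR adjusted p = 0.00354; -0.73, adjusted p = 0.0637), lost without TP2 tumor 3 or 4 (-1.17 to -0.94, adjusted p up to 0.0137). Dcn, the small proteoglycan decorin, measured 1512, 1041, 315 and 541 CPM in TP2 tumors 1 to 4 and 2108, 1788, 2198 and 2622 CPM in TP3 tumors 1 to 4 and rose by 1.35 ± 0.35 (edgeR adjusted p = 0.011; 0.76 without TP2 tumors 3 and 4, adjusted p = 0.0672). Col1a1, the main fibrillar collagen chain, measured 2279, 4064, 3099 and 3323 CPM in TP2 tumors 1 to 4 and 2016, 2159, 1827 and 1658 CPM in TP3 tumors 1 to 4. Its groups did not overlap, and the difference of -0.74 ± 0.25 (edgeR adjusted p = 0.034) was inside the fold limit, with -0.74 (adjusted p = 0.169) without TP2 tumors 3 and 4.

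Col3a1 differed by -0.18 ± 0.22 (adjusted p = 0.536; -0.32, adjusted p = 0.468), the crosslinking enzyme Lox by 0.50 ± 0.32 (adjusted p = 0.225; 0.09, adjusted p = 0.907) and fibronectin, Fn1, by 0.16 ± 0.26 (adjusted p = 0.64; -0.12, adjusted p = 0.837). All 3 overlapped between times. Spp1, osteopontin, which tumor cells and macrophages secrete, went the other way from Dcn, with 36.1, 45.9, 30.1 and 15.5 CPM in TP2 tumors 1 to 4 and 9.69, 10.3, 9.81 and 6.88 CPM in TP3 tumors 1 to 4. It fell (log2 fold change -1.80 ± 0.50, edgeR adjusted p = 0.0153; -2.17 without TP2 tumors 3 and 4, adjusted p = 0.0496). The controls held 214, 427 and 187 CPM, above all 8 tumors. Tnc, tenascin C of wound and tumor stroma, differed by -0.80 ± 0.26 (adjusted p = 0.0284; -0.88, adjusted p = 0.111) without overlap.

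In the basement membrane, 2 of 23 genes rose and 2 fell (median 0.14; 0.10, with 1 lower, without TP2 tumors 3 and 4). Of all genes, 3.47% rose and 4.40% fell. Nid1, nidogen, measured 207, 94.2, 48.4 and 71.6 CPM in TP2 tumors 1 to 4 and 399.7, 442, 275 and 338 CPM in TP3 tumors 1 to 4 and rose by 1.79 ± 0.37 (edgeR adjusted p = 0.0045; 1.26 without TP2 tumors 3 and 4, adjusted p = 0.0637). Lama5, a laminin chain of epithelial basement membranes, measured 304, 508, 602 and 463 CPM in TP2 tumors 1 to 4 and 202, 194, 224 and 212 CPM in TP3 tumors 1 to 4, all TP2 tumors above all TP3 tumors, and fell (log2 fold change -1.17 ± 0.17, edgeR adjusted p = 0.00142; -0.97 without TP2 tumors 3 and 4, adjusted p = 0.0178). Of 24 matrix proteases and inhibitors, 2 rose (median 0.32; -0.06, with none passing, without TP2 tumors 3 and 4). Adamts5, which cuts versican and aggrecan, was one of them, with 106, 45.1, 47.4 and 58.8 CPM in TP2 tumors 1 to 4 and 245, 337, 197 and 177 CPM in TP3 tumors 1 to 4 and a rise of 1.89 ± 0.34 (edgeR adjusted p = 0.00289; 1.65 without TP2 tumors 3 and 4, adjusted p = 0.0554). None of 23 TGF-beta ligands, receptors and feedback genes passed, with or without TP2 tumors 3 and 4 (medians 0.07 and -0.02). Of 17 myofibroblast genes, 3 rose and none fell (median 0.35; 0.18, with none passing, without those tumors), among them Acta2, smooth muscle actin (1.41 ± 0.33, edgeR adjusted p = 0.00737; 0.92, adjusted p = 0.108, without TP2 tumors 3 and 4), and Postn, periostin (1.44 ± 0.45, edgeR adjusted p = 0.0255; 1.01, adjusted p = 0.288), whose call was lost in 4 of 8 cases with 1 tumor left out, the TP2 tumors 2, 3 and 4 and TP3 tumor 2 (1.25 to 1.90, adjusted p up to 0.0823).

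Vessel genes had positive medians. Of 19 blood endothelial genes, 3 rose and none fell, with a median of 0.98 (0.77 without TP2 tumors 3 and 4, where 1 passed). Pecam1, a general endothelial marker, was 136, 62.4, 91.2 and 51.9 CPM at TP2 and 183, 209.5, 138 and 143 CPM at TP3, without overlap, but did not pass (0.98 ± 0.48, adjusted p = 0.118; 0.75, adjusted p = 0.49). Rgcc, a cell cycle regulator found in capillary endothelium, measured 12.1, 3.81, 4.16 and 3.15 CPM in TP2 tumors 1 to 4 and 28.1, 31.1, 22.7 and 23.9 CPM in TP3 tumors 1 to 4 and rose by 2.18 ± 0.38 (edgeR adjusted p = 0.00234; 1.72 without TP2 tumors 3 and 4, adjusted p = 0.042). Gpihbp1, which anchors lipoprotein lipase on capillaries, rose by 2.57 ± 0.76 (edgeR adjusted p = 0.0205; 2.04, adjusted p = 0.227, without those tumors), from 1.84, 0.385, 0.416 and 0.426 CPM at TP2 to 4.73, 5.95, 4.16 and 3.75 CPM at TP3, and was lost also without TP2 tumor 3 or 4 alone (2.34 to 3.53, adjusted p up to 0.0651). Of 12 pericyte and smooth muscle genes, 2 rose and none fell (median 1.03; 0.71, with none passing, without TP2 tumors 3 and 4).

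**Figure D3:**
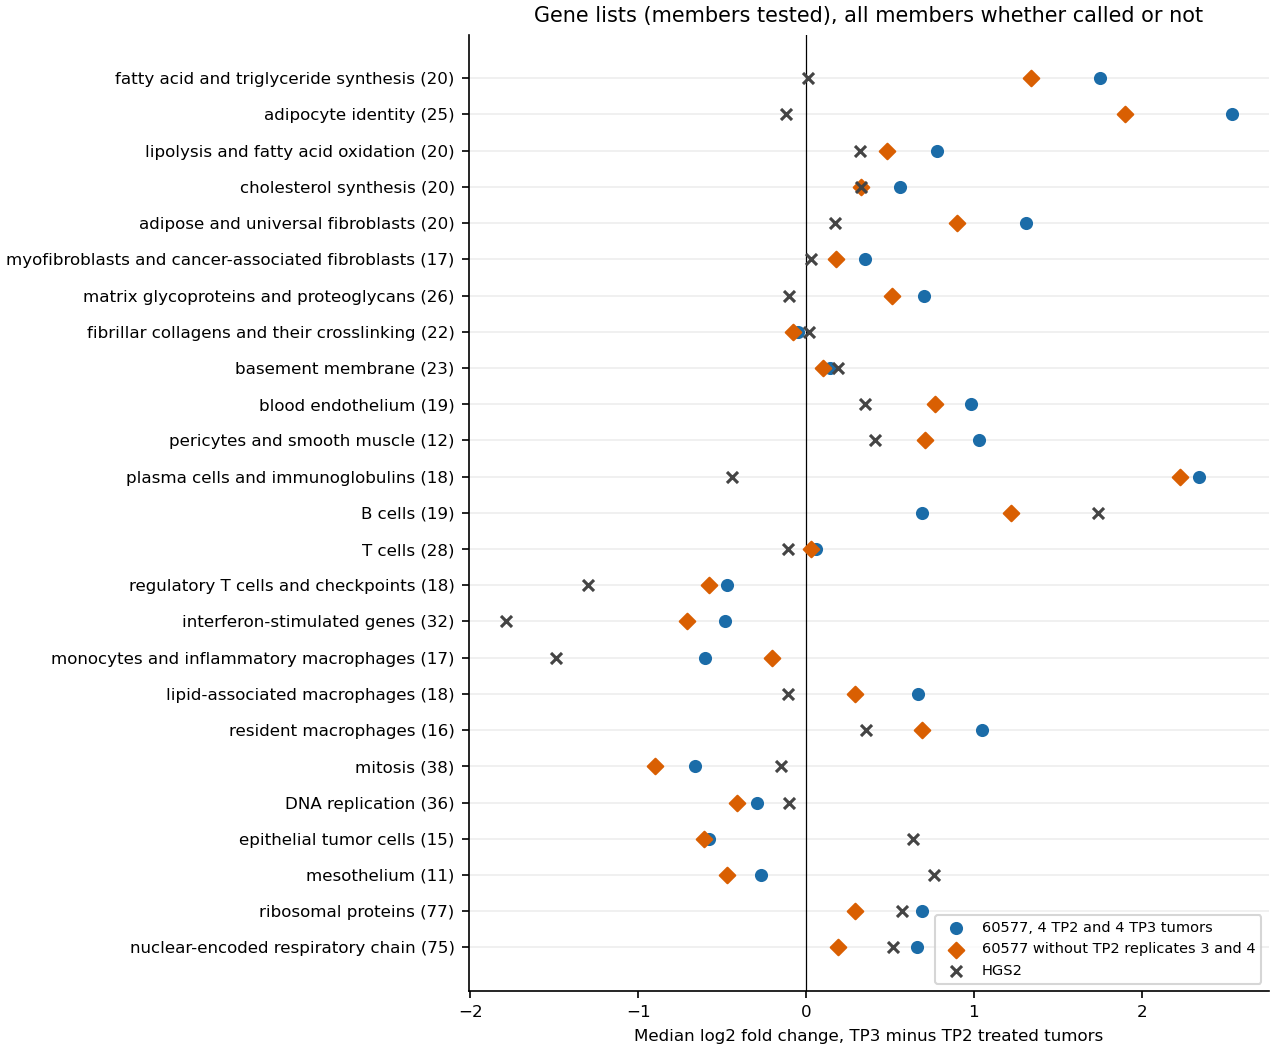
Median log2 fold change of TP3 minus TP2 treated tumors for 25 gene lists, with the number of members tested in parentheses. Circles are the 60577 tumors, diamonds 60577 without TP2 tumors 3 and 4, and crosses HGS2. The adipocyte list reaches 2.54 and the immunoglobulin list 2.34 in 60577, where mitosis lies at -0.66.

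Immunoglobulin genes had the highest median of the immune lists. Of 18 plasma cell and immunoglobulin genes, 9 rose and none fell (median 2.34). Without TP2 tumors 3 and 4 the median was 2.23 and none passed. Ighm, the heavy chain of IgM, measured 589.7, 186, 159.5 and 235 CPM in TP2 tumors 1 to 4 and 2467, 1842, 2427 and 2905 CPM in TP3 tumors 1 to 4. All TP3 tumors lay above all TP2 tumors, and Ighm rose by 3.04 ± 1.06 (edgeR adjusted p = 0.0374; 2.63 without TP2 tumors 3 and 4, adjusted p = 0.293). Igkc, the kappa light chain, measured 362, 47.3, 56.9 and 87.2 CPM in TP2 tumors 1 to 4 and 1395, 1303, 2046 and 1272 CPM in TP3 tumors 1 to 4 and rose by 3.44 ± 1.13 (edgeR adjusted p = 0.0306; 2.87, adjusted p = 0.274). The controls were at 59.1, 3.29 and 221 CPM. With 1 tumor left out at a time, the call of Ighm was lost in 7 of 8 cases, all but the one without TP2 tumor 1 (2.84 to 3.68, adjusted p up to 0.106), and that of Igkc in 4, without TP2 tumor 2, 3 or 4 or TP3 tumor 3 (3.16 to 4.60, adjusted p up to 0.0904).

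Ighg3, the heavy chain of IgG3, measured 11.8, 3.35, 17.2 and 10.5 CPM in TP2 tumors 1 to 4 and 33.2, 746, 669 and 132 CPM in TP3 tumors 1 to 4. It was uneven at TP3, where tumors 2 and 3 held most of it, and rose by 5.21 ± 1.15 (edgeR adjusted p = 0.0058; 5.69 without TP2 tumors 3 and 4, adjusted p = 0.0689). The summed variable region (V) genes followed the constant regions, with 209.4, 25.2, 28.6 and 44.4 CPM in TP2 tumors 1 to 4 and 642.9, 927.5, 1291 and 1017 CPM in TP3 tumors 1 to 4. Of 69 immunoglobulin V genes tested, 36 rose (52.2%, against 3.47% of all genes) and none fell. Their median was 2.93, and 2.52 with 2 passing without TP2 tumors 3 and 4. V genes resemble each other, so reads can be split between them.

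Genes of the secreting cell were measured beside them. Mzb1, a chaperone of B-1 and plasma cells, measured 9.33, 2.66, 4.31 and 5.50 CPM in TP2 tumors 1 to 4 and 21.8, 25.2, 45.2 and 23.99 CPM in TP3 tumors 1 to 4 and rose by 2.41 ± 0.69 (edgeR adjusted p = 0.0176; 2.27 without TP2 tumors 3 and 4, adjusted p = 0.174), and was lost without TP2 tumor 3 alone (2.12 to 2.85, adjusted p up to 0.0555). Jchain, which joins IgM and IgA units, missed the limit at 2.92 ± 1.10 (adjusted p = 0.0509; 2.26, adjusted p = 0.353), with 144, 16.9, 14.8 and 28.8 CPM at TP2 and 367, 319, 563 and 302 CPM at TP3. Of 19 B cell genes all had a positive fold change, with a median of 0.69 (1.22 without TP2 tumors 3 and 4), but 1 passed. This was Pou2af1, a coactivator that B cells need for germinal centers, with 31.2, 11.1, 17.8 and 25.9 CPM in TP2 tumors 1 to 4 and 69.7, 71.4, 74.1 and 66.6 CPM in TP3 tumors 1 to 4 (1.71 ± 0.58, edgeR adjusted p = 0.0336; 1.73, adjusted p = 0.206), whose call was lost in 7 of 8 cases with 1 tumor left out, all but TP2 tumor 1 (1.49 to 1.99, adjusted p up to 0.0904). Ms4a1, which encodes CD20, measured 36.4, 11.2, 26.4 and 25.6 CPM in TP2 tumors 1 to 4 and 52.8, 74.5, 67.6 and 60.5 CPM in TP3 tumors 1 to 4, without overlap (1.36 ± 0.62, adjusted p = 0.0955; 1.41, adjusted p = 0.327). Cxcl13, the chemokine that draws B cells into milky spots, measured 34.02, 11.7, 4.93 and 18.3 CPM in TP2 tumors 1 to 4 and 121, 81.2, 79.2 and 104 CPM in TP3 tumors 1 to 4 and rose by 2.48 ± 0.65 (edgeR adjusted p = 0.0115; 2.06 without TP2 tumors 3 and 4, adjusted p = 0.137).

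Macrophage genes changed in both directions. Of 16 resident macrophage genes tested, 8 rose and none fell (median 1.05; 0.69 without TP2 tumors 3 and 4, where none passed). Vsig4, the complement receptor of tissue macrophages, measured 1.42, 0.924, 0.104 and 0.554 CPM in TP2 tumors 1 to 4 and 15.6, 6.89, 5.30 and 16.1 CPM in TP3 tumors 1 to 4 and rose by 3.82 ± 0.82 (edgeR adjusted p = 0.00517; 3.21 without TP2 tumors 3 and 4, adjusted p = 0.0812). Timd4, a receptor for dying cells, measured 11.1, 6.39, 2.29 and 8.27 CPM in TP2 tumors 1 to 4 and 40.3, 12.2, 15.8 and 40.3 CPM in TP3 tumors 1 to 4, with TP3 tumors 1 and 4 high and TP3 tumors 2 and 3 just above TP2 tumor 1. It rose by 1.94 ± 0.69 (edgeR adjusted p = 0.0396; 1.62, adjusted p = 0.277), a call lost in 5 of 8 cases with 1 tumor left out, TP2 tumors 2 to 4 and TP3 tumors 1 and 4 (1.66 to 2.29, adjusted p up to 0.111). Pf4, a chemokine of platelets and resident macrophages, measured 18.8, 7.55, 2.39 and 6.56 CPM in TP2 tumors 1 to 4 and 31.3, 29.6, 30.1 and 33.6 CPM in TP3 tumors 1 to 4, tight at TP3, and rose by 1.81 ± 0.49 (edgeR adjusted p = 0.0136; 1.23, adjusted p = 0.154).

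The scavenger receptor Cd163 rose by 1.30 ± 0.43 (edgeR adjusted p = 0.0303; 1.36, adjusted p = 0.179) and the hyaluronan receptor Lyve1, shared with lymphatic vessels, by 1.71 ± 0.58 (edgeR adjusted p = 0.0337; 1.16, adjusted p = 0.271) with overlap. With 1 tumor left out at a time, Cd163 was lost in 4 of 8 cases, TP2 tumors 3 and 4 and TP3 tumors 1 and 4 (1.16 to 1.38, adjusted p up to 0.0736), and Lyve1 in 5, the same and TP2 tumor 2 (1.23 to 2.23, adjusted p up to 0.119). Among 17 genes of monocytes and inflammatory macrophages, 1 rose and 3 fell (median -0.60; -0.20 without TP2 tumors 3 and 4, where 1 fell). Chil3, a chitinase-like protein of alternatively activated macrophages and immature myeloid cells, measured 2.50, 21.1, 2.86 and 9.67 CPM in TP2 tumors 1 to 4 and 0.581, 0.360, 1.35 and 0.775 CPM in TP3 tumors 1 to 4. It was lower in each TP3 tumor than in each TP2 tumor and fell (log2 fold change -3.55 ± 0.86, edgeR adjusted p = 0.00846; -3.93 without TP2 tumors 3 and 4, adjusted p = 0.0392). Arg1, arginase, measured 16.2, 26.6, 17.2 and 27.2 CPM in TP2 tumors 1 to 4 and 4.38, 3.75, 2.56 and 11.9 CPM in TP3 tumors 1 to 4 and fell (log2 fold change -1.94 ± 0.65, edgeR adjusted p = 0.0334; -1.91, adjusted p = 0.173), and so did Il1b, interleukin 1 beta (-1.19 ± 0.43, edgeR adjusted p = 0.044; -1.22, adjusted p = 0.185). The call of Chil3 held with any 1 tumor left out, that of Arg1 was lost in 6 of 8 cases, all but TP2 tumor 1 and TP3 tumor 4 (-2.61 to -1.70, adjusted p up to 0.0847), and that of Il1b in all 8 (-1.30 to -1.05, adjusted p up to 0.119).

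The member that rose was Ly6c2, the antigen of classical monocytes, with 4.65, 2.69, 1.87 and 2.26 CPM in TP2 tumors 1 to 4 and 13.7, 14.1, 21.4 and 21.2 CPM in TP3 tumors 1 to 4 and a fold change of 2.61 ± 0.51 (edgeR adjusted p = 0.00368; 2.25 without TP2 tumors 3 and 4, adjusted p = 0.0683). On the list of lipid-associated macrophages, 4 of 18 genes rose and 1 fell (median 0.67; 0.29, 2 higher and 1 lower, without TP2 tumors 3 and 4). The members that rose include Lpl and Cd36, which adipocytes also express. Gpnmb, a glycoprotein of lipid-laden macrophages, measured 41.9, 24.1, 18.1 and 20.9 CPM in TP2 tumors 1 to 4 and 56.8, 132, 96.8 and 74.5 CPM in TP3 tumors 1 to 4 and rose by 1.77 ± 0.54 (edgeR adjusted p = 0.0225; 1.44, adjusted p = 0.238), lost without TP2 tumor 3 or 4 or TP3 tumor 2 (1.53 to 2.13, adjusted p up to 0.0712). Trem2, the lipid-sensing receptor that defines these cells, was 51.95, 53.2, 55.9 and 53.5 CPM at TP2 and 26.6, 30.2, 30.4 and 35.9 CPM at TP3, without overlap, a difference of -0.80 ± 0.15 (adjusted p = 0.0036; -0.78, adjusted p = 0.0429) inside the fold limit.

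Interferon genes had a negative median, and T cell genes gave no call. Of 32 interferon-stimulated genes, none rose and 4 fell, against 4.40% of all genes (median -0.48; -0.71 without TP2 tumors 3 and 4, where 2 fell). The mean log2 CPM over the list was 3.89, 5.49, 4.05 and 4.04 in TP2 tumors 1 to 4. In TP3 tumors 1 to 4 it was 4.63, 3.53, 3.55 and 4.2, so the times overlapped. TP2 tumor 2 was the highest for the list, and leaving out TP2 tumors 3 and 4 gives it more weight. Mx1, an antiviral GTPase, measured 8.45, 33.9, 10.2 and 8.31 CPM in TP2 tumors 1 to 4 and 6.04, 2.20, 2.08 and 2.13 CPM in TP3 tumors 1 to 4 and fell (log2 fold change -2.29 ± 0.64, edgeR adjusted p = 0.0158; -2.78, adjusted p = 0.0496), a call lost without TP2 tumor 2 (-2.83 to -1.53, adjusted p up to 0.0569). Ifit1, which binds foreign RNA, measured 2.88, 57.9, 5.46 and 3.37 CPM in TP2 tumors 1 to 4 and 10.7, 2.31, 3.50 and 4.39 CPM in TP3 tumors 1 to 4 and overlapped (-1.74 ± 0.81, adjusted p = 0.103; -2.55, adjusted p = 0.0787).

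None of 28 T cell genes (medians 0.06 and, without TP2 tumors 3 and 4, 0.03) and none of 13 cytotoxic and NK cell genes (medians 0.18 and, without TP2 tumors 3 and 4, 0.02) passed, with or without TP2 tumors 3 and 4. Cd3e, a chain of the T cell receptor complex, was 36.6, 19.8, 19.01 and 25.8 CPM at TP2 and 27.3, 26.3, 25.2 and 33.3 CPM at TP3 (0.15 ± 0.34, adjusted p = 0.754; -0.02, adjusted p = 0.989). Of 18 regulatory T cell and checkpoint genes, 2 fell (median -0.47; -0.58, with 1 lower, without TP2 tumors 3 and 4). One was Pdcd1lg2, the PD-L2 ligand of PD-1, with 10.2, 9.59, 8.88 and 12.9 CPM in TP2 tumors 1 to 4 and 3.10, 3.14, 2.50 and 4.17 CPM in TP3 tumors 1 to 4 and a log2 fold change of -1.69 ± 0.52 (edgeR adjusted p = 0.0232; -1.62 without TP2 tumors 3 and 4, adjusted p = 0.147). Its call was lost without TP2 tumor 4 or without TP3 tumor 1, 2 or 3 (-1.83 to -1.54, adjusted p up to 0.0652). Pdcd1, which encodes PD-1, was 20.7, 17.2, 16.1 and 12.2 CPM at TP2 and 9.38, 9.12, 8.70 and 10.2 CPM at TP3, without overlap (-0.82 ± 0.21, adjusted p = 0.0103; -1.03, adjusted p = 0.0336, without TP2 tumors 3 and 4, which passes). Foxp3, the factor that defines regulatory T cells, differed by -0.52 ± 0.43 (adjusted p = 0.345; -0.61, adjusted p = 0.537).

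**Figure D4:**
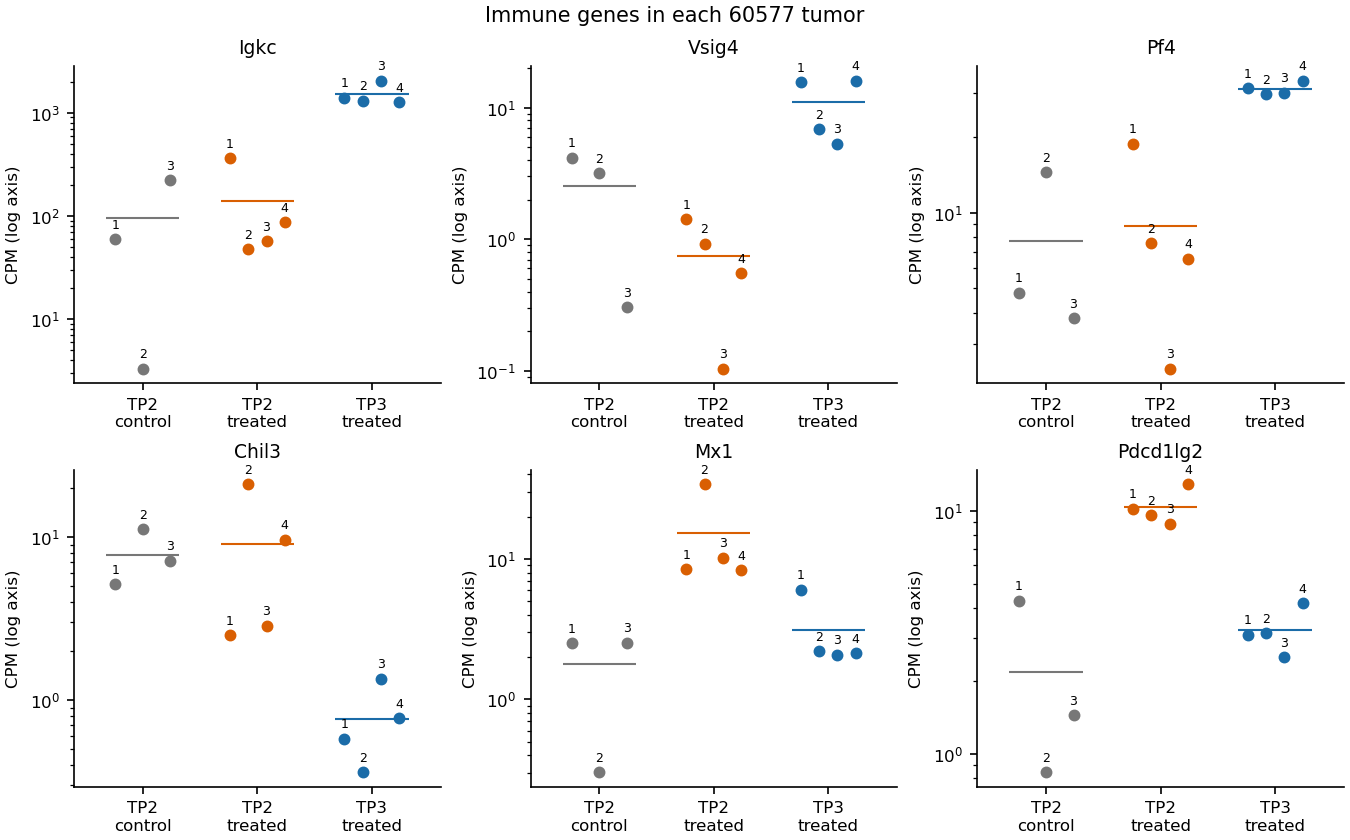
CPM (log axis) of Igkc, Vsig4, Pf4, Chil3, Mx1 and Pdcd1lg2 in each 60577 tumor. Points are tumors with their replicate number and lines are group means (3 TP2 control, 4 TP2 treated, 4 TP3 treated). The TP3 tumors lie above all TP2 treated tumors for Igkc, Vsig4 and Pf4 and below them for Chil3, Mx1 and Pdcd1lg2.

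Genes of cell division stood lower at TP3 than at TP2. All 38 mitosis genes had a negative log2 fold change, with a median of -0.66, and 16 did not overlap between times, against 13.7% of all genes, but 3 passed both limits (4.40% of all genes), namely Cenpf, Espl1 and Mybl2. With an offset for length and GC content, Espl1 (-0.838) and Mybl2 (-0.965) lay inside the fold limit. Without TP2 tumors 3 and 4 the median was -0.90, all 38 were again negative and 9 passed. The mean log2 CPM over the list was 3.06, 3.55, 2.85 and 2.94 in TP2 tumors 1 to 4, 2.44, 2.25, 2.30 and 2.84 in TP3 tumors 1 to 4 and 5.13 to 5.31 in TP2 controls, so TP3 tumor 4 nearly reached TP2 tumor 3.

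Mki67, the proliferation antigen Ki-67, measured 93.3, 116, 78.1 and 91.4 CPM in TP2 tumors 1 to 4 and 56.9, 46.2, 44.7 and 68.1 CPM in TP3 tumors 1 to 4. The groups did not overlap and both lay far below the controls at 278, 259 and 259 CPM. The difference of -0.81 ± 0.14 (edgeR adjusted p = 0.00238) was inside the fold limit, with -0.96 (adjusted p = 0.0154) without TP2 tumors 3 and 4. Top2a, the topoisomerase that untangles sister chromatids, behaved alike (-0.71 ± 0.18, edgeR adjusted p = 0.0095; -0.96, adjusted p = 0.0182). Cenpf, a kinetochore protein, measured 23.8, 37.7, 27.5 and 23.5 CPM in TP2 tumors 1 to 4 and 11.1, 11.8, 11.1 and 17.7 CPM in TP3 tumors 1 to 4 and fell (log2 fold change -1.12 ± 0.21, edgeR adjusted p = 0.00323; -1.25 without TP2 tumors 3 and 4, adjusted p = 0.0221), a call lost without TP2 tumor 2, where the change was inside the fold limit (-1.31 to -0.94, adjusted p up to 0.013).

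Espl1, the separase that cuts cohesin at anaphase, measured 16.8, 23.9, 21.9 and 20.6 CPM in TP2 tumors 1 to 4 and 10.2, 9.23, 8.56 and 12.8 CPM in TP3 tumors 1 to 4 and fell (log2 fold change -1.03 ± 0.13, edgeR adjusted p = 0.00107; -1.004, adjusted p = 0.0154), a call lost in the same way without TP2 tumor 2 or TP3 tumor 2 or 3 (-1.16 to -0.95, adjusted p up to 0.00593). Mybl2, the B-MYB factor that switches on late cell cycle genes, fell (-1.13 ± 0.18, edgeR adjusted p = 0.00184; -0.94, adjusted p = 0.0284). Kif11, the spindle motor Eg5, chosen after its values were seen, measured 13.6, 18.2, 12.7 and 11.97 CPM in TP2 tumors 1 to 4 and 7.05, 6.56, 6.10 and 8.56 CPM in TP3 tumors 1 to 4, a difference of -0.999 ± 0.15 (edgeR adjusted p = 0.0016; -1.18, adjusted p = 0.0154) just inside the fold limit, and was the 1 gene that passed in the lower direction with the 7SL share as a covariate (-1.37, adjusted p = 0.0418).

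DNA replication genes had a median nearer to 0. Of 36, none rose and 2 fell, against 4.40% of all genes (median -0.29; -0.41 without TP2 tumors 3 and 4, where 1 fell). These were Mcm10, a replication initiation factor (-1.18 ± 0.18, edgeR adjusted p = 0.00184; -1.18, adjusted p = 0.0194), and Pole, the leading strand polymerase (-1.06 ± 0.19, edgeR adjusted p = 0.00289; -0.81, adjusted p = 0.0512), lost in 4 of 8 cases with 1 tumor left out, TP2 tumors 3 and 4 and TP3 tumors 2 and 3 (-1.20 to -0.96, adjusted p up to 0.0123). Pcna, the polymerase clamp, leaned the other way, with 61.7, 54.5, 24.5 and 30.5 CPM at TP2 and 58.4, 63.96, 62.8 and 68.4 CPM at TP3 (0.57 ± 0.22, adjusted p = 0.0555). Its 2 low values were TP2 tumors 3 and 4, and without them the difference was 0.12 (adjusted p = 0.565). None of 25 p53 targets passed (medians 0.08 and, without TP2 tumors 3 and 4, 0.02), with or without those tumors.

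**Figure D5:**
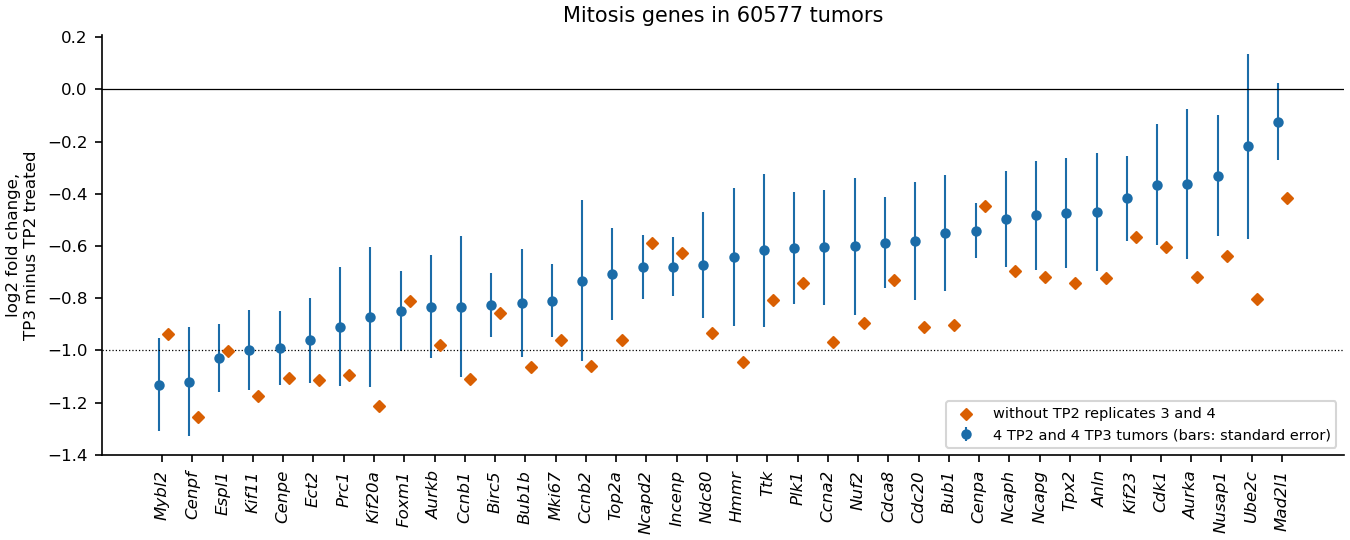
log2 fold change of TP3 minus TP2 treated 60577 tumors for the 38 mitosis genes. Circles with bars (standard error) are all 8 tumors and diamonds leave out TP2 tumors 3 and 4. All values are below 0, and the dotted line marks the fold limit at -1.

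Promoters of 3 mitosis genes are shown because they carry the cell cycle genes homology region (CHR), the element through which the DREAM and B-MYB complexes act on mitotic genes. They were chosen after their values were seen, and TTTGAA or its reverse complement is in capitals (RefSeq, GRCm38.p6; Cenpf chr1:189688037-189688336, minus strand; Espl1 chr15:102296043-102296342, plus strand; Kif11 chr19:37376132-37376431, plus strand).
Cenpf: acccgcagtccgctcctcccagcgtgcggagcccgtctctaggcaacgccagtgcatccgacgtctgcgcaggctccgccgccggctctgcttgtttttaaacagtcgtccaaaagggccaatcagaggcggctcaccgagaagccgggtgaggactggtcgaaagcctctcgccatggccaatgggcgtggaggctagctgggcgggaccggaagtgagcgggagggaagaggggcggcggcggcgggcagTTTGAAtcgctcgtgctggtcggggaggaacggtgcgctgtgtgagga
Espl1: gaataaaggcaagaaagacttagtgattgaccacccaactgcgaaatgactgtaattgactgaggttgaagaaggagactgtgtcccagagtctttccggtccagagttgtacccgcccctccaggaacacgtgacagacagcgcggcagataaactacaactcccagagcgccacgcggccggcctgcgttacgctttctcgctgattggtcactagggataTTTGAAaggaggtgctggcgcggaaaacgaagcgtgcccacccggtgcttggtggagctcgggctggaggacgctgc
Kif11: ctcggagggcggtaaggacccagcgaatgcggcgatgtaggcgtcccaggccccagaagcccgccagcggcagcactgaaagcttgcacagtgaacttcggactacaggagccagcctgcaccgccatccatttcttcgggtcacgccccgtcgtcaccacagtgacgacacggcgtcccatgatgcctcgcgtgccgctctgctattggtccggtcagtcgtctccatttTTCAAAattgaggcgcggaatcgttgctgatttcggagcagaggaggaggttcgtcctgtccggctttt
TTTGAA on either strand lay in 23 of 32 mitosis promoters (71.9%) and in 18.1% of all promoters, and CCAAT in 24 of the 32. No motif searched contains another. The 3 genes shown had log2 fold changes of -1.12 (Cenpf), -1.03 (Espl1) and -0.999 (Kif11), and each has 1 match.

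Lists of the malignant and mesothelial lineage had negative medians. Of 15 epithelial tumor cell genes, none rose and 1 fell, against 4.40% of all genes (median -0.58; -0.61 without TP2 tumors 3 and 4). It was Esrp2, an epithelial splicing regulator, which overlapped between times (-1.09 ± 0.27, edgeR adjusted p = 0.0094; -0.83, adjusted p = 0.117) and was lost without TP2 tumor 2 or 3 (-1.30 to -0.87, adjusted p up to 0.0377) and by limma-voom. Krt18, a keratin of simple epithelia, measured 44.6, 108, 57.7 and 47.5 CPM in TP2 tumors 1 to 4 and 31.1, 29.9, 31.3 and 37.8 CPM in TP3 tumors 1 to 4, without overlap, and differed by -0.99 ± 0.26 (edgeR adjusted p = 0.0124; -1.24, adjusted p = 0.0409, without TP2 tumors 3 and 4, which passes). Its partner Krt8 overlapped (-0.58 ± 0.28, adjusted p = 0.108; -0.98, adjusted p = 0.0558), as did Epcam, an epithelial adhesion molecule (0.05 ± 0.34, adjusted p = 0.913; -0.42, adjusted p = 0.456). Upk1b, a uroplakin of mesothelium, fell (log2 fold change -1.05 ± 0.22, edgeR adjusted p = 0.00487; -0.94, adjusted p = 0.0652), from 53.03, 100.3, 88.1 and 90.9 CPM at TP2 to 27.6, 36.4, 49.3 and 47.3 CPM at TP3. It was the 1 of 11 mesothelial genes that passed (median -0.27; -0.47 without TP2 tumors 3 and 4) and was lost without TP2 tumor 2 or 4 or TP3 tumor 1 (-1.18 to -0.91, adjusted p up to 0.0182). In the cultured line, without TMM scaling, Upk1b stood at 499.4 and 503.4 CPM and the mesothelial list summed to 5768 and 6379 CPM. Whether Upk1b in the tumors came from mesothelium or tumor cells was not tested.

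Among 28 genes of glycolysis and the hypoxia response, 2 rose and 3 fell (median 0.00; -0.19, with 2 lower, without TP2 tumors 3 and 4). The shares over all genes were 3.47% and 4.40%. Those that rose were Adm (1.66 ± 0.59, edgeR adjusted p = 0.042) and Bnip3 (1.60 ± 0.46, edgeR adjusted p = 0.0175). Neither passed without TP2 tumors 3 and 4 (1.41 and 1.08, edgeR adjusted p = 0.293 and 0.232). The 3 that fell are known for handling acid, which was not tested as a group. They were the carbonic anhydrases Car12, with 52.3, 58.6, 57.2 and 33.4 CPM in TP2 tumors 1 to 4 and 20.2, 31.6, 25.3 and 19.9 CPM in TP3 tumors 1 to 4 (-1.05 ± 0.19, edgeR adjusted p = 0.00253; -1.20, adjusted p = 0.0154, without TP2 tumors 3 and 4), and Car9 (-1.39 ± 0.36, edgeR adjusted p = 0.0109; -1.35, adjusted p = 0.0938), and the lactate exporter Slc16a3, with 54.1, 78.9, 54.96 and 55.3 CPM in TP2 tumors 1 to 4 and 28.7, 31.6, 32.5 and 27.7 CPM in TP3 tumors 1 to 4 (-1.01 ± 0.24, edgeR adjusted p = 0.00826; -1.15, adjusted p = 0.0498). In TP2 controls the values were 150.1, 218 and 186 CPM for Car12 and 279, 613 and 234 CPM for Slc16a3, above all 8 tumors. With 1 tumor left out at a time, Car9 held, Car12 fell inside the fold limit in 4 of 8 cases, TP2 tumors 2 and 3 and TP3 tumors 1 and 4 (-1.21 to -0.97, adjusted p up to 0.0104), and Slc16a3 in 3, TP2 tumor 2 and TP3 tumors 1 and 4 (-1.06 to -0.86, adjusted p up to 0.0232). Of 18 NRF2 and glutathione genes, 4 rose and none fell (1 without TP2 tumors 3 and 4), among them Gstm1, a glutathione transferase (1.48 ± 0.33, edgeR adjusted p = 0.00607; 0.90, adjusted p = 0.0524).

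The protein coding genes with the largest decreases or the smallest p among those that fell formed no single fixed list. Speg, a kinase of striated muscle, measured 121, 216, 374 and 296 CPM in TP2 tumors 1 to 4 and 84.7, 87.9, 95.8 and 80.7 CPM in TP3 tumors 1 to 4, highest in TP2 tumors 3 and 4, and fell (-1.53 ± 0.24, edgeR adjusted p = 0.00186; -0.96, adjusted p = 0.0194). Asic3, an acid-sensing channel, fell (-2.30 ± 0.31, edgeR adjusted p = 0.0012; -1.74, adjusted p = 0.0154). Hpx, the heme scavenger hemopexin, fell (-2.40 ± 0.38, edgeR adjusted p = 0.00191; -2.11, adjusted p = 0.0247). The metalloprotease Adamts7 and the microtubule crosslinker Mtcl1 fell, with log2 fold changes of -1.39 ± 0.19 and -1.40 ± 0.19, and of -1.005 and -1.15 without TP2 tumors 3 and 4. For Adamts7 the values were 54.8, 93.6, 127 and 114 CPM at TP2 and 35.1, 34.6, 35.4 and 43.6 CPM at TP3.

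Lists of genes that every cell uses were also higher at TP3. All 77 ribosomal protein genes had a positive log2 fold change (median 0.69, 6 rose), which was 0.29 with none passing without TP2 tumors 3 and 4. All 75 nuclear-encoded respiratory chain genes did too (median 0.66, 4 rose; 0.19, with none passing, without those tumors), and none passed with an offset for length and GC content. Their mean log2 CPM was 5.36 and 5.05 in TP2 tumors 1 and 2, 4.07 and 4.23 in TP2 tumors 3 and 4, and 5.39 to 5.47 at TP3. Of 1799 noncoding transcripts tested (lincRNA, antisense, intronic and unconfirmed transcripts), 2 rose and 164 fell (median -0.44; -0.20 with 21 lower without TP2 tumors 3 and 4). Rn7s1, a 7SL gene with a near-identical copy, fell (log2 fold change -2.55 ± 0.56, edgeR adjusted p = 0.00576; -1.88, adjusted p = 0.0813, without TP2 tumors 3 and 4). Genes that rose had a median GC content of 49.1% and a median exon length of 2853 bases, those that fell 53.1% and 3520 bases, and all genes tested 49.2% and 4097 bases.

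Pancreatic acinar genes were the protein coding genes with the largest increases among those without overlap, and several of them had no count in 3 of the 4 TP2 tumors (Reg1, Try4, Try5 and Sycn). Of 19 tested, 15 rose, with a median of 5.10 (4.49, with none passing, without TP2 tumors 3 and 4). DESeq2 called 17 of them and limma-voom none, with a median of 5.17. Their summed level was 9.68, 38.1, 8.73 and 9.20 CPM in TP2 tumors 1 to 4, 231.5, 103.9, 644.3 and 99.8 CPM in TP3 tumors 1 to 4 and 2526, 18.1 and 444 CPM in TP2 controls, so it also differed by far within a group. Ctrb1, chymotrypsinogen, measured 0.192, 3.58, 0.416 and 0.170 CPM in TP2 tumors 1 to 4 and 44.5, 21.9, 129.6 and 15.3 CPM in TP3 tumors 1 to 4 and rose by 5.54 ± 1.47 (edgeR adjusted p = 0.0125; 4.80, adjusted p = 0.16), and Cpa1, a carboxypeptidase, rose by 5.12 ± 1.41 (edgeR adjusted p = 0.0145; 4.62, adjusted p = 0.17). With few counts at TP2, the size of these fold changes depends on the prior count of the fit. The pancreas borders the omentum, and the part of its tissue in other results was not tested. With the mean of these genes as a covariate, 234 genes rose and 594 fell. In that fit 45 of the 85 calls among the named genes were lost, and 3 others were gained. Of the other tissue lists, erythrocyte genes summed to 27.2 to 116.1 CPM at TP2 and 92.1 to 273.1 CPM at TP3, and skeletal muscle and liver genes stayed at or below 11.2 CPM in all 8 tumors.

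In HGS2 tumors the same comparison of 3 TP3 with 3 TP2 treated tumors called none of 16241 genes (0%) by edgeR, and none by limma-voom. DESeq2 called 105, and 1690 genes had an unadjusted edgeR p below 0.05. A count of 0 does not show that the models differ, so the difference between the changes was tested in one fit of 33 tumors. It called 27 genes (0.166%), of which 14 (0.0862%) had the more positive change in 60577 and 13 (0.0800%) the more negative one. Of these 27, 12 were among the genes that rose and 7 among those that fell in 60577.

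Lipid synthesis genes led the first group. Fasn differed by 0.00 in HGS2, a difference of 2.50 between the models (edgeR adjusted p = 0.00493), and Acaca by -0.20, a difference of 2.05 (edgeR adjusted p = 0.00142). The difference was 1.96 for Acss2 (edgeR adjusted p = 0.044), 1.61 for Slc25a1 (0.0253), 1.81 for Tkt (0.0253), 1.45 for Pank3 (0.0373) and 1.70 for Agpat2 (0.0253). Outside lipid synthesis, it was 2.93 for Adamts5 (edgeR adjusted p = 0.0253) and 4.69 for Ly6c2, which differed by -2.10 in HGS2 (edgeR adjusted p = 0.0373). Asic3 was the other way, at -3.33 (edgeR adjusted p = 0.0373). Adipoq, Ighm, Vsig4 and Mki67 were not among the 27 (edgeR adjusted p = 0.388, 0.235, 0.766 and 0.548), so for these a difference between models was not shown. Of the 25 adipocyte identity genes tested, 1 was among the 27, and the median difference of that list was 2.43. Without 60577 TP2 tumors 3 and 4 no gene passed this edgeR test, where 1555 genes had an unadjusted p below 0.05 (2779 with them), and the count ran from 2 to 494 with 1 tumor left out, the 494 without 60577 TP2 tumor 1.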

How the data were processed

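Bulk RNA was sequenced from whole omental tumors after ribosomal RNA depletion. Per the submitters' processing notes and the study's methods, the authors trimmed reads with Trim Galore 0.6.5, aligned them to mouse GRCm38 with STAR 2.7.0f and deposited RSEM expected counts per gene, without normalization. The normalization and fits that the study describes after this step are not in the deposited expected counts. Labels do not say how RNA extractions were grouped, so p-values measure the spread between these tumors.

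The 55487 genes were named with GENCODE M21 (260 had no entry). Expected counts were rounded, and 16241 genes that reached 1 CPM (counts scaled to a common library total) in 25% or more of 33 tumors entered the tests. The 17 60577 tumors in 5 groups were fitted with edgeR 4.0.16 (quasi-likelihood, TMM) in R 4.3.3, and TP3 was contrasted with TP2 treated. The fits kept the default prior count of edgeR, and a prior count of 2 served for log2 CPM values. Calls needed a Benjamini-Hochberg adjusted p below 0.05 over all genes and an absolute log2 fold change above 1. HGS2 TP3 replicate 1, which the study's tables leave out, was not used in the fits of HGS2 (3 against 3) and of both models (33 tumors, 10 groups). Members and the 50 gene lists were chosen with earlier results of these data known. Named genes were the first 4 members of each list, up to 6 further called members, and the 12 protein coding genes in each direction with the largest change (no overlap, mean of at least 1 CPM) or the smallest p (mean of at least 20 CPM), of which the text shows a part. On simulated counts for the 16241 genes with 200 changed, the fit recovered 63%, 87% and 94% of changes of 1, 1.5 and 2 log2 units. Recovery here needed an adjusted p below 0.05 and the right sign, without the fold limit, so it is not the recovery of calls. Of the genes passing, 5.97%, 5.4% and 5.05% were false. Counts were drawn gene by gene around group means, without the differences in RNA composition between tumors. No pair of libraries within a group agreed within sampling noise. Alternatives were other scalings and filters, length and GC offsets, limma-voom 3.58.1, DESeq2 1.42.0, a replicate block, single tumors left out and, added after seeing the data, TP2 tumors 3 and 4 left out and the 7SL share or the pancreatic genes as a covariate. A fit with the 7SL genes removed before scaling was also added after seeing the data.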

Additional observations from a re-analysis of the deposited data

Results flagged for a closer look

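In 39 of 324 groups of 4 tumors examined, 1 tumor lay apart from the other 3 by Dixon's criterion. The groups were genes named above, except Adm and Bnip3, and gene lists. Chance meets this criterion in about 1 in 20 groups, and the groups share tumors and genes. TP2 tumor 1 was apart in more groups than any other tumor, with the highest TP2 values in CPM of Fasn (1024), Scd1 (1741), Agpat2 (27.2), Dgat2 (102.5), Adipoq (159), Lep (26.7), Plin1 (209.8), Cd36 (203.8), Rgcc (12.1), Gpihbp1 (1.84), Igkc (361.6), Jchain (143.5), Ighv12-3 (5.84) and Igkv4-91 (4.88), the lowest of Mybl2 (3.99), and the highest mean log2 CPM of the adipocyte list (5.71) and the fatty acid and triglyceride list (6.17). For each of these it was the TP2 tumor nearest to TP3. TP2 tumor 2 was high in Mx1 (33.9 CPM), Ifit1 (57.9 CPM), Slc16a3 (78.9 CPM), Ctrb1 (3.58 CPM), the interferon list (mean log2 CPM 5.49) and the pancreatic list (-0.13), and low in the B cell list (3.57), while TP2 tumor 4 was low in Npas2 (0.682 CPM).

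Among TP3 tumors, tumor 1 was high in Mx1 (6.04 CPM) and the lipolysis and fatty acid oxidation list (mean log2 CPM 5.45) and tumor 2 in Acta2 (133.8 CPM). Tumor 3 was low in Agpat2 (43.9 CPM) and the lymphatic endothelium list (2.15) and high in Igkc (2046 CPM), Mzb1 (45.2 CPM) and structural RNA (10.2). Tumor 4 was high in Cenpf (17.7 CPM), Adamts7 (43.6 CPM), Mcpt4 (8.40 CPM), Cma1 (7.98 CPM), Serping1 (1101 CPM) and the list of eosinophils, mast cells and type 2 signals (3.52).

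Of the genes named, 10 differed between models in the edgeR test of the 60577 minus the HGS2 change, on the log2 scale Fasn (2.50), Acaca (2.05), Acss2 (1.96), Agpat2 (1.70), Slc25a1 (1.61), Tkt (1.81), Pank3 (1.45), Adamts5 (2.93), Ly6c2 (4.69) and Asic3 (-3.33). None of these passed without 60577 TP2 tumors 3 and 4.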

How the results depend on the processing

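The 1278 calls became 1254 to 1645 under other scalings, filters, offsets and tools, 214 (49 higher, 165 lower) without TP2 treated tumors 3 and 4, 15 (14 higher, 1 lower) with the 7SL share as a covariate and 828 with the pancreatic genes as a covariate (234 of them higher). With the 7SL genes removed before scaling the calls were 1303 (547 higher, 756 lower). With 1 tumor left out at a time they ranged from 732 (TP2 tumor 3) to 2127 (TP2 tumor 1), the higher calls from 285 to 1122 and the lower ones from 447 to 1005. Of the 109 genes named, Adm and Bnip3 aside, 85 were called. Of these calls 55 were lost, and 3 others gained, without TP2 tumors 3 and 4. An offset for length and GC content lost 10 and gained 3 others, and 14 and 1 with a replicate block as well. With the offset, Lama5 (-0.801), Speg (-0.999), Bmp1 (-0.828), Slc16a3 (-0.824) and Pole (-0.99) were among those inside the fold limit. With the 7SL genes removed before scaling, 84 of the 85 calls held, and Rn7s1 was not in that fit. All 85 were lost and 1 other gained with the 7SL share, where Rn7s1 (0.02) and Nlrc5 (0.17) also changed sign. Their edgeR adjusted p were then 0.981 and 0.931. Rn7s1 is itself part of the 7SL share, so the loss of its difference was set in advance by this fit. The 7SL share did not overlap between times. Its slope was fitted within the groups, so the adjusted difference extends that slope between times. With the share as a covariate, list medians were 1.10 (adipocyte), 0.91 (fatty acid and triglyceride), 1.31 (adipose and universal fibroblasts) and -0.92 (mitosis). Without it they were 2.54, 1.75, 1.31 and -0.66. HGS2 gave 0 calls by edgeR and 105 by DESeq2. The 27 differences between models became 57 by limma-voom, 330 by DESeq2, 13 with HGS2 TP3 replicate 1 included, 0 without 60577 TP2 tumors 3 and 4, and 2 to 494 with 1 tumor left out. The causes of these moves were not tested. In the replicate block fit 1273 genes were called (606 higher, 667 lower), and 5 in the difference between models, and 7 of the 85 calls were lost. Deviations of same-numbered TP2 and TP3 tumors correlated at -0.117, -0.148, 0.069 and 0.055, and none was the highest for its number. Neither labels nor methods pair tumors by number. These correlations over all genes cannot exclude a factor shared by number for some genes. What a call lost under the block means was not tested.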

Other observations

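Other gene groups were described by the same counts, beside 3.47% of all genes called higher and 4.40% called lower. Of 11 genes of eosinophils, mast cells and type 2 signals, 2 rose and 1 fell (median 1.05; 0.59, with none passing, without TP2 tumors 3 and 4). The 2 were mast cell proteases of connective tissue. Mcpt4 measured 1.80, 0.924, 0.675 and 0.426 CPM at TP2 and 3.25, 3.64, 3.67 and 8.40 CPM at TP3, without overlap (2.29 ± 0.56, edgeR adjusted p = 0.00885; 1.79, adjusted p = 0.136, without TP2 tumors 3 and 4), and Cma1, chymase, measured 3.00, 2.23, 0.675 and 1.15 CPM and 3.95, 4.22, 4.06 and 7.98 CPM (1.503 ± 0.48, edgeR adjusted p = 0.0262; 0.94, adjusted p = 0.286). Both were highest in TP3 tumor 4. Ear2, an eosinophil ribonuclease also found in macrophages, fell (-2.21 ± 0.71, edgeR adjusted p = 0.0277; -2.77, adjusted p = 0.0549). Of 13 dendritic cell genes 1 fell (median -0.35; -0.54 without TP2 tumors 3 and 4), Siglech, a receptor of plasmacytoid dendritic cells, with 6.68, 8.32, 7.38 and 5.79 CPM at TP2 and 2.39 to 3.57 CPM at TP3 (-1.32 ± 0.40, edgeR adjusted p = 0.0218; -1.42, adjusted p = 0.104). With 1 tumor left out at a time the calls of Siglech and Ear2 were each lost in 4 of 8 cases (-1.45 to -1.23, adjusted p up to 0.0551, and -2.51 to -1.73, adjusted p up to 0.0765) and that of Cma1 in 3 (1.19 to 1.91, adjusted p up to 0.0818).

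In MHC class I presentation 1 of 14 genes rose and 1 fell (median 0.23; -0.03 without TP2 tumors 3 and 4), and neither passed with an offset for length and GC content. B2m, the light chain of the complex, measured 598, 395, 131 and 179 CPM at TP2 and 703, 622, 632 and 705 CPM at TP3 (1.03 ± 0.34, edgeR adjusted p = 0.0328; 0.41, adjusted p = 0.246), lowest in TP2 tumors 3 and 4, and Nlrc5, which activates these genes, measured 121, 140.3, 232 and 238 CPM and 126, 74.6, 61.3 and 99.02 CPM (-1.02 ± 0.36, edgeR adjusted p = 0.0401; -0.54, adjusted p = 0.455), highest in TP2 tumors 3 and 4. Both calls were lost in most fits with 1 tumor left out, B2m in 6 (0.77 to 1.53, adjusted p up to 0.0957) and Nlrc5 in 5 of 8 (-1.22 to -0.83, adjusted p up to 0.123). None of 10 MHC class II genes (medians 0.12 with and -0.12 without TP2 tumors 3 and 4) and none of 14 neutrophil genes (-0.51 and -0.35) passed. All 16 complement genes had a positive log2 fold change (median 0.62; 0.26 without TP2 tumors 3 and 4), and 2 rose, C7 and Serping1, the inhibitor of C1 (1.19 ± 0.30, edgeR adjusted p = 0.0106; 0.67, adjusted p = 0.0634), the latter lost without TP2 tumor 3 (0.93 to 1.62, adjusted p up to 0.0387). Of 13 lymphoid aggregate signals, Cxcl13 was the 1 that passed (median 0.33; 0.13 without TP2 tumors 3 and 4), and of 7 lymphatic endothelial genes, Lyve1 (median 1.38; 0.80, with 1 lower, without TP2 tumors 3 and 4).

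Of 17 circadian clock genes 1 rose (median 0.16; 0.33 without TP2 tumors 3 and 4), and none by limma-voom. Npas2, a clock transcription factor, measured 2.11, 2.00, 1.87 and 0.682 CPM at TP2 and 9.57, 7.79, 5.23 and 0.549 CPM at TP3, low in tumor 4 of each time (1.79 ± 0.58, edgeR adjusted p = 0.0289; 1.48, adjusted p = 0.241; 1.43 to 2.17, adjusted p up to 0.0846 with 1 tumor left out, where 4 of 8 fits lost it). Of 17 immediate early genes 1 fell (median -0.01; -0.07 without TP2 tumors 3 and 4), Npas4, a factor induced by activity (-1.58 ± 0.38, edgeR adjusted p = 0.0077; -0.95, adjusted p = 0.169). Of 5 genes of brown and beige fat tested 1 rose (median 0.02; 0.09 without TP2 tumors 3 and 4), Ebf2, a factor of adipose progenitors (1.86 ± 0.59, edgeR adjusted p = 0.026; 1.49, adjusted p = 0.242; 1.61 to 2.26, adjusted p up to 0.0765 with 1 tumor left out, where 4 of 8 fits lost it). None of 12 mitochondrially encoded genes passed (median 0.21; -0.54 without TP2 tumors 3 and 4), and 3 of 6 structural RNA genes fell (median -1.01; -0.85, with none passing). None of the 5 erythrocyte, 1 skeletal muscle, 3 liver, 1 intestinal and 5 Schwann cell and nerve genes tested passed, with medians of 1.14, 0.58, -0.05, -1.70 and -0.42, and of 1.02, 0.42, -0.36, -0.65 and -0.36 without TP2 tumors 3 and 4.

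The V genes with the highest levels at TP3 were not spread evenly, and those named here were chosen after their values were seen. Igkv14-126 measured 2.27, 0.193, 0.364 and 0.767 CPM in TP2 treated tumors 1 to 4 and 84.5, 36.7, 21.8 and 23.6 CPM in TP3 tumors 1 to 4, a log2 fold change of 5.50 ± 0.96 (edgeR adjusted p = 0.00243; 5.06, adjusted p = 0.0471, without TP2 tumors 3 and 4). Ighv11-2 measured 2.30, 0.501, 0.935 and 1.32 CPM and 52.8, 22.2, 15.04 and 16.7 CPM (4.38 ± 0.89, edgeR adjusted p = 0.00413; 4.23, adjusted p = 0.0663). Both were highest in TP3 tumor 1. Ighv12-3 measured 5.84, 0.270, 0.416 and 0.383 CPM and 34.7, 55.3, 23.6 and 10.1 CPM (4.13 ± 1.13, edgeR adjusted p = 0.0143; 3.32, adjusted p = 0.168), and Igkv4-91 measured 4.88, 0, 0.104 and 0.511 CPM and 47.4, 76.1, 20.6 and 14.8 CPM (4.81 ± 1.22, edgeR adjusted p = 0.0105; 4.01, adjusted p = 0.133). These 2 were highest in TP3 tumor 2. As background, Ighv11 with Igkv14-126 and Ighv12-3 with Igkv4-91 are the heavy and light chain pairs known from B-1 cells whose antibodies bind phosphatidylcholine. Reads of single V genes do not show which chains were paired.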
